A study of Mus musculus with 12 samples.

Results

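The 42 genes described here are a set whose products run mitosis, from the cyclin-dependent kinase that starts it to the motors and scaffolds that divide the cell in 2. They were taken by gene symbol from a deposited expression table of 24674 genes, and all 42 were found in it. RNA was sequenced from organoids, small cultures grown in a gel, that came from basal cells of wild type C57BL/6 mouse prostate. There were 4 groups of 3 samples, given vehicle, UK5099, butyrate, or UK5099 and butyrate together (the combination). UK5099 keeps pyruvate out of mitochondria by blocking its carrier in the inner membrane, and butyrate is a short-chain fatty acid that inhibits histone deacetylases. The comparisons ask how each agent, alone and on top of the other, altered the RNA of the mitotic machinery. No label says whether the samples of a group came from separate animals or separate cultures, so the p-values below measure the spread between these samples only. All groups were made of bulk RNA, in which fewer dividing cells and less mitotic RNA per dividing cell cannot be told apart.

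A dividing cell makes most of its mitotic RNA late in the cycle, in G2 and M phase. Transcription of these genes is driven then by FOXM1 and by B-MYB (the product of Mybl2) bound to the MuvB complex, and is held down in resting cells by the DREAM complex. MuvB reaches many of these promoters through the cell cycle genes homology region (CHR), and NF-Y binds nearby CCAAT boxes. At the protein level, CDK1 with cyclin B starts mitosis after CDC25 phosphatases remove the inhibitory phosphates that WEE1 placed on it, the spindle checkpoint holds the anaphase-promoting complex back until chromosomes are attached, and its release lets separase part the sister chromatids. The prostate epithelium has basal and luminal cells, and basal cells in organoid culture proliferate.

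The promoters of the members carry these letters more often than promoters in general, as a description of the sequence only. RefSeq promoter windows (GRCm38.p6, 250 bases before to 50 after the annotated start) could be matched to 35 of the 42 members and were not used here for Aurkb, Ccna2, Cdc25c, Foxm1, Incenp, Kif20a and Tpx2. The letters searched on both strands were CCAAT, for the NF-Y site, and for the CHR either TTTGAA or the variant TTTAAA, which reads the same on either strand, and matches that shared end bases were counted for each motif. CCAAT stood in 25 of the 35 members (71.4%), against 41.1% of 27025 genes with a window. TTTGAA stood in 25 members too (71.4%), against 20.2% of all genes, and TTTAAA in 9 (25.7%), against 14.9%. A CCAAT box together with TTTGAA was found in 21 members (60.0%), against 7.97% of all genes. In Mad2l1, Mybl2, Nuf2, Nusap1 and Pttg1 the window held none of these letters. Shown are 150 bases, 120 before and 30 after the start, read along the gene's strand with matches in capitals (ATTGG marks a CCAAT box on the opposite strand, and TTCAAA a CHR there). Cdk1, Ccnb2 and Top2a show the arrangement with both motifs. Cdc25b is shown because it was the member whose RNA rose, and Mybl2 because its RNA fell most with each agent alone. The positions are chr10:69352883-69353032 (minus strand) for Cdk1, chr9:70421525-70421674 (minus) for Ccnb2, chr11:99024160-99024309 (minus) for Top2a, chr2:131186828-131186977 (plus) for Cdc25b and chr2:163054515-163054664 (plus) for Mybl2.
Cdk1: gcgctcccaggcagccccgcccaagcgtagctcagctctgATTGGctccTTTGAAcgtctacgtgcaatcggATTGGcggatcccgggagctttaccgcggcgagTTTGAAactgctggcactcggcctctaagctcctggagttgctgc
Ccnb2: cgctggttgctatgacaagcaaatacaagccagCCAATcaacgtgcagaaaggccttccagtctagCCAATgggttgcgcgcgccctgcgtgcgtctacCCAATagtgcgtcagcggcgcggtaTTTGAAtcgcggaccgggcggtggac
Top2a: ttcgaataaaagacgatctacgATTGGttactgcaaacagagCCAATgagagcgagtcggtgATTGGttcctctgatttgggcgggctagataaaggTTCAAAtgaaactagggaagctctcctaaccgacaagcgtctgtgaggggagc
Cdc25b: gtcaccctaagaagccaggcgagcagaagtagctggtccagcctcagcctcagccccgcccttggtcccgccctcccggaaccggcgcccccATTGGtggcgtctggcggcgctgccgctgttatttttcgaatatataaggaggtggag
Mybl2: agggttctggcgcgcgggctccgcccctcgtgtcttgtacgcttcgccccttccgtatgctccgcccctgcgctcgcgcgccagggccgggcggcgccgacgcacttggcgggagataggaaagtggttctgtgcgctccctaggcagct

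In the bases shown for Ccnb2, 3 CCAAT boxes precede 1 TTTGAA, and those for Cdk1 hold 2 of each. The Cdc25b window holds 1 CCAAT, on the other strand, and no TTTGAA or TTTAAA. Other spellings of the CHR were not searched, so this does not show that Cdc25b lacks one. Its bases hold ttcgaa after the start, which differs from TTTGAA by a single letter. Over the members, 48 of 59 CCAAT matches and 30 of 32 TTTGAA matches lay in the part of the window from 150 bases before the start onwards. That part makes up most of the window's length, and positions were not computed for all genes.

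**Figure D1:**
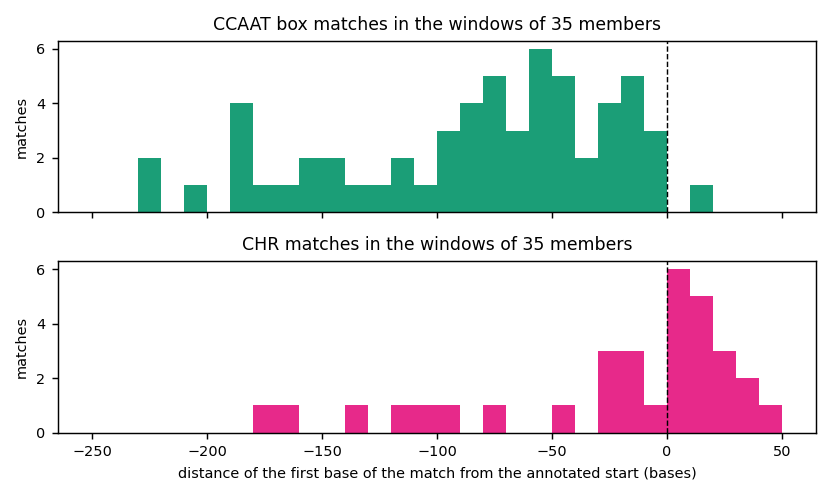
Number of CCAAT (top) and TTTGAA (bottom) matches in the promoter windows of 35 members, by the distance in bases from the annotated start (dashed line). CCAAT matches lie mostly before the start, with a median first base at -71, and TTTGAA matches lie around it, with a median at 2.

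Depth, recovered from the smallest step of each sample's values, was between 33251585 and 43498539 fragments. Every member had at least 451 fragments in each sample, with the fewest in Pttg1, Mybl2 and Ttk, where counting error weighs most. The median coefficient of variation of the members was 2.19% (vehicle), 4.11% (UK5099), 2.58% (butyrate) and 6.15% (combination) in turn. UK5099 replicate 1 and combination replicate 1 stood apart: 2 and 0 of the 42 members were above their group's mean there, and the counts of members are given also without both. Basal markers were abundant, and Krt5, Krt14 and Trp63 together came to between 3507 and 3547 TPM in vehicle, 9746 to 10238 under UK5099, 4486 to 4676 under butyrate and 8067 to 8320 under both. Of these, Krt14 was at 1676 TPM on average in vehicle and 1391 under butyrate, while Krt5 was at 1848 and 3152. The epithelial markers Epcam and Cdh1 together went from 699 to 718 TPM in vehicle to 425 to 446 under UK5099, 271 to 273 under butyrate and 178 to 183 under both. Luminal keratins (Krt8, Krt18 and Krt19) went from 4132 to 4301 TPM in vehicle to 2328 to 2487, 2241 to 2281 and 1389 to 1576 in the same order. Endothelial markers (Pecam1, Cdh5 and Kdr) were under 1 TPM in every sample, as were the leukocyte marker Ptprc, the neuroendocrine marker Chga and 5 of 7 stromal markers. The other leukocyte marker measured, Cd68, moved with treatment, from 24.2 ± 0.507 TPM in vehicle (SD, n = 3) to 30.2 ± 0.617, 67.4 ± 1.20 and 91.7 ± 5.38. The stromal marker Dcn was at 9.51 ± 0.129 TPM with butyrate and between 0.762 ± 0.0856 and 1.41 ± 0.174 in the other groups. The part of these markers in the results on mitosis was not tested.

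On the deposited scale all 3 treatments lowered most of the mitosis genes, by a modest amount each time and most under the combination. With butyrate this hung on the scale: 18 of 42 fell after the median-of-ratios scaling described below. Levels are given in TPM, a length-scaled share of a sample's transcripts, which this table scales by a gene's whole genomic span, so levels are compared between samples and not between genes. Differences are log2 differences in TPM + 1 from a limma fit of 4 groups, with Benjamini-Hochberg adjusted p-values over all 24674 genes, and a gene passed where its adjusted p was under 0.01. With UK5099, 37 of 42 members fell and 1 rose, where 24.7% of all genes fell and 8.24% rose. With butyrate, 39 fell and 1 rose, where 35.9% of all genes fell and 9.7% rose. With the combination, 41 fell and 1 rose, against 40.8% and 10.1% of all genes. The single gene that rose was Cdc25b each time. On the deposited scale the median member was at 77.2% of its vehicle TPM with UK5099, 69.5% with butyrate and 54.6% with both. In each treatment 41 members had all 3 samples below all 3 vehicle samples, as did 35.1%, 44.2% and 49.1% of all genes, and Cdc25b had all 3 above, as did 14.1%, 15.9% and 15.6%. The 3 comparisons share the vehicle samples.

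A general shift of the table goes into these values. Over the 13345 genes that averaged 1 TPM or more, the median log2 difference was -0.12 for UK5099, -0.30 for butyrate and -0.41 for both. The members' medians of -0.32, -0.46 and -0.73 lay below each of these. Among those expressed genes, 38.1%, 57.6% and 64.2% fell in the same order. When samples were instead scaled by the median of ratios, which sets the typical gene to no change, 26 members fell and 1 rose with UK5099, where 13.6% of all genes fell and 13.6% rose. With butyrate, 18 then fell and 3 rose (Cdc25b, Cenpa and Nusap1), where 18.2% of all genes fell and 20.2% rose. With the combination, 35 fell and 1 rose, against 20.6% and 23.4%. Among genes that averaged 1 TPM or more, 19.9%, 28.6% and 31.5% fell after that scaling. The members' medians after that scaling were -0.19, -0.15 and -0.32. In recovered fragments scaled the same way, the median member was at 85.9%, 89.1% and 77.7% of vehicle. Across 7 ways of scaling, 26 members fell in every one with UK5099, 16 with butyrate and 34 with both, where 19.1%, 24.9% and 28.6% of the 15888 genes tested under all 7 did so. Cdc25b rose in every one under all 3 treatments, as did 10.5%, 10.9% and 11.2% of those genes. Without UK5099 replicate 1 and combination replicate 1, on the deposited scale, 37 members fell with UK5099, 40 with butyrate and 41 with both.

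**Figure D2:**
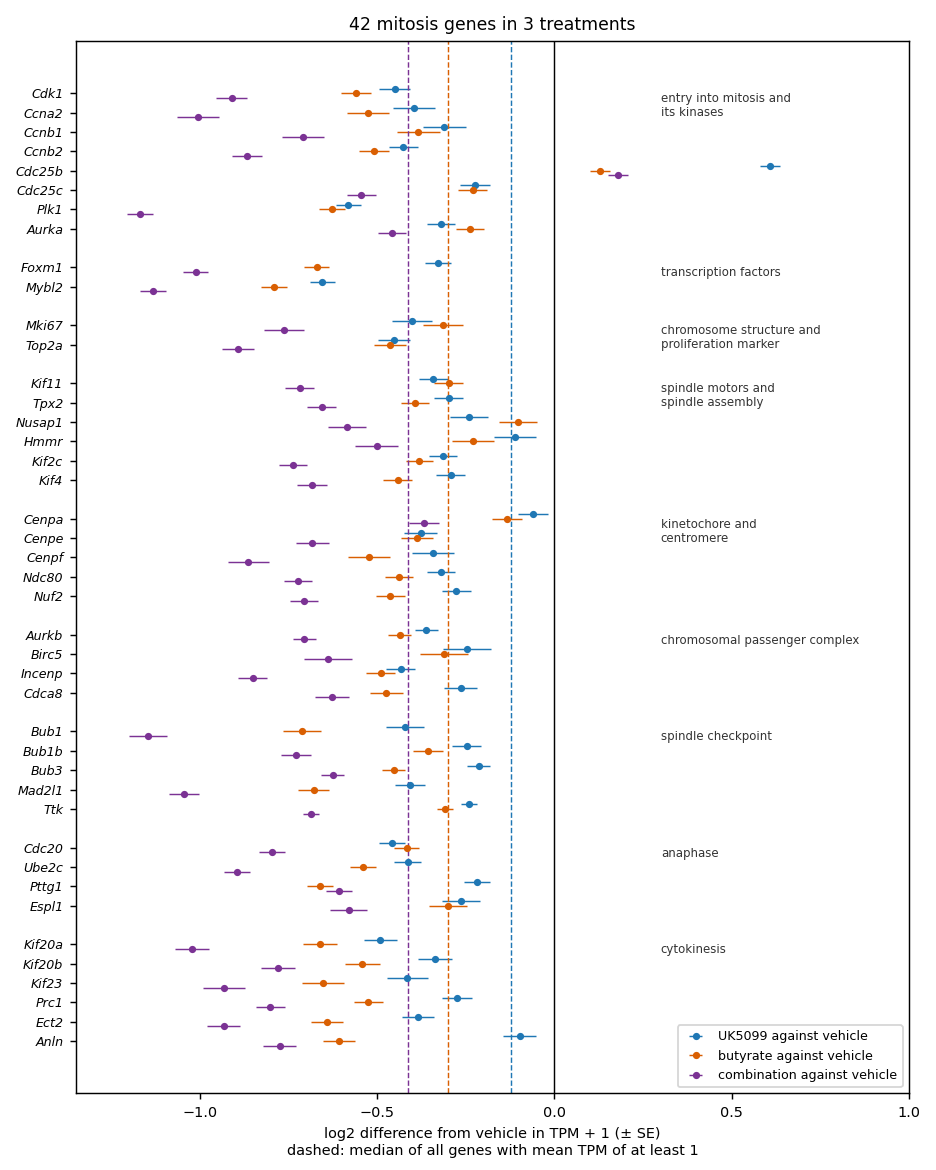
Log2 difference from vehicle (± SE, 3 samples a group) of each of the 42 members with UK5099 (blue), butyrate (orange) and the combination (purple), grouped by role. Dashed lines mark the median of genes that averaged 1 TPM or more, at -0.12, -0.30 and -0.41, the combination is leftmost for all members but Pttg1 and Cdc25b, and only Cdc25b lies to the right of 0.

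The kinases and cyclins that bring a cell into mitosis fell in every treatment on the deposited scale. After median-of-ratios scaling 5 of the 8 genes of mitotic entry fell with UK5099, 3 with butyrate and 6 with both, with Cdc25b higher each time. Beside the counts of this and the later roles, 38.1%, 57.6% and 64.2% of genes that averaged 1 TPM or more fell on the deposited scale. After median-of-ratios scaling 19.9%, 28.6% and 31.5% of those genes fell. Cdk1, the kinase at the centre of mitotic entry, was at 25.9, 26.1 and 26.5 TPM in the 3 vehicle samples, 18.2, 19.4 and 19.0 with UK5099, 17.2, 16.9 and 18.2 with butyrate, and 12.7, 13.3 and 14.3 with the combination. The treated samples lay below vehicle throughout and the combination lay below either agent alone. Its log2 difference was -0.45 ± 0.04 (SE) with UK5099, -0.56 ± 0.04 with butyrate and -0.91 ± 0.04 with both (limma adjusted p = 2.22e-05, 2.11e-06 and 4.36e-08). Ccnb1, cyclin B1, was at 40.2, 39.1 and 38.3 TPM in vehicle, 28.9, 32.4 and 33.1 with UK5099, 29.1, 30.4 and 29.9 with butyrate and 21.8, 23.6 and 25.5 with the combination. Ccnb2, the other B-type cyclin, fell by 0.43, 0.51 and 0.87 on the log2 scale in the same order. Ccna2, cyclin A2, which acts in S phase and at mitotic entry, fell from 87.2, 84.3 and 84.4 TPM in vehicle to 38.8, 43.5 and 43.8 with the combination. Its log2 difference there was -1.005 ± 0.06 (SE).

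Plk1, a kinase needed for centrosome maturation and spindle assembly, had the lowest combination value of the set on the log2(TPM + 1) scale, while Mybl2 (33.9%) and Bub1 (38.8%) kept less of their vehicle TPM and lay lower after median-of-ratios scaling. It was at 27.3, 28.0 and 26.4 TPM in vehicle, 18.4, 17.4 and 17.8 with UK5099, 17.5, 18.1 and 16.3 with butyrate, and 11.5, 11.4 and 11.7 with the combination. The 3 combination samples were nearly equal, at 42.4% of vehicle on average. The log2 difference was -0.58 with UK5099, -0.63 with butyrate and -1.17 ± 0.04 (SE) with the combination, and the last was -0.69 after median-of-ratios scaling. Aurka, the centrosomal kinase that activates PLK1, fell less, by 0.32 with UK5099, 0.24 with butyrate and 0.46 with both. After median-of-ratios scaling Aurka was at -0.18, 0.09 and 0.01, so its fall with butyrate depended on the scale. Cdc25c, a phosphatase that activates CDK1, fell by 0.22, 0.23 and 0.54. Some of its fragments were shared with other genes in the counting, so its level is less certain.

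Cdc25b, the phosphatase thought to act first on CDK1 at mitotic entry, was the exception. The table places it on chromosome 2 from 131028869 to 131040418. Its vehicle samples were at 22.5, 23.3 and 23.0 TPM, UK5099 samples at 34.7, 35.7 and 36.2, butyrate samples at 25.0, 24.8 and 25.7, and combination samples at 25.1, 26.2 and 27.1. The UK5099 samples lay far above all others, and the butyrate and combination samples lay narrowly above vehicle and overlapped each other. The log2 difference was 0.61 ± 0.03 (SE) with UK5099, 0.13 ± 0.03 with butyrate and 0.18 ± 0.03 with both (limma adjusted p = 2.08e-07, 0.00338 and 0.000335). Leaving out vehicle replicate 1, vehicle replicate 3 or butyrate replicate 3 left the butyrate value short of the limit, with limma adjusted p-values between 0.0107 and 0.0155, as did a pseudocount of 0.01 in place of 1 (0.011). After median-of-ratios scaling the differences were 0.75, 0.47 and 0.67.

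Both transcription factors of the programme fell in every treatment. Mybl2, which encodes B-MYB, was at 4.66, 4.60 and 4.62 TPM in vehicle, 2.48, 2.72 and 2.53 with UK5099, 2.15, 2.31 and 2.31 with butyrate, and 1.44, 1.63 and 1.63 with the combination. No group overlapped another. It had the lowest value of all members with each single agent, -0.65 ± 0.04 (SE) with UK5099 and -0.79 ± 0.04 with butyrate (limma adjusted p = 6.61e-07 and 6.43e-08), and was at -1.13 ± 0.04 with the combination. These values understate the change of a gene near 1 TPM, since 1 was added to each: the mean TPM was 55.7%, 48.7% and 33.9% of vehicle. Mybl2 had 0 of 11 values under 1000 fragments that came out as whole fragments, so part of its reads was shared with other genes. The same limit holds for Kif2c (0 of 11) and Ndc80 (1 of 11). Only values under 1000 fragments were read in this way, so members with more fragments may share reads too. Among them Plk1, Foxm1, Kif20a, Ccna2, Ccnb1 and Cdc20 had 0 whole values in any sample, and sharing was not settled for them. Foxm1, the factor that drives G2 and M phase genes, was at 24.8, 24.2 and 25.1 TPM in vehicle, 19.6, 19.0 and 19.8 with UK5099, 15.3, 15.1 and 15.0 with butyrate, and 11.2, 11.5 and 12.5 with the combination. It fell by 0.33, 0.67 and 1.01 on the log2 scale, and butyrate samples lay below UK5099 samples. After median-of-ratios scaling both genes fell in all 3 treatments.

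**Figure D3:**
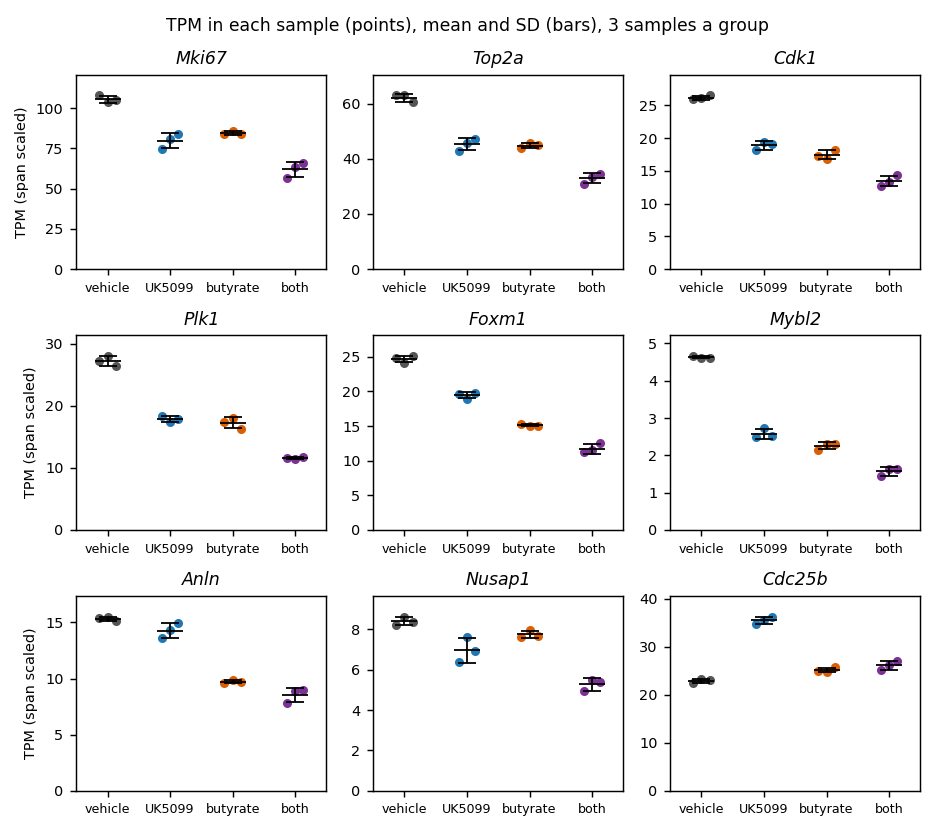
TPM of 9 members in each of the 12 samples (points), with the mean and SD of each group of 3 (bars). Mki67, Top2a, Cdk1, Plk1, Foxm1 and Mybl2 step down from vehicle to either agent to both, Anln drops mainly with butyrate, Nusap1 mainly with both, and Cdc25b is highest with UK5099.

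Mki67, the proliferation marker Ki-67 that coats mitotic chromosomes, was at 108, 104 and 105 TPM in vehicle, 74.9, 80.6 and 84.1 with UK5099, 83.9, 86.1 and 84.2 with butyrate, and 56.5, 63.7 and 65.7 with the combination. UK5099 and butyrate samples overlapped, and both lay below vehicle. The log2 difference was -0.40 ± 0.06 (SE), -0.31 ± 0.06 and -0.76 ± 0.06 (limma adjusted p = 0.0003, 0.000916 and 1.17e-06). After median-of-ratios scaling it was at -0.25 with UK5099, 0.04 with butyrate and -0.26 with both, so its fall with butyrate depended on the scale. Top2a, the topoisomerase that untangles sister chromatids, was at 63.0, 63.0 and 60.5 TPM in vehicle, 42.8, 45.7 and 47.1 with UK5099, 43.8, 45.7 and 44.9 with butyrate, and 31.0, 33.5 and 34.6 with the combination. The samples of the single agents overlapped and those of the combination lay lower. After median-of-ratios scaling Top2a was at -0.30 with UK5099 and at -0.11 with butyrate, which did not pass, and was higher with butyrate than with UK5099 by 0.19 (limma adjusted p = 0.00291).

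Of the 6 genes for spindle motors and spindle assembly, 5 fell with UK5099, 5 with butyrate and 6 with both. After median-of-ratios scaling 4 fell with UK5099 and 4 with both. With butyrate 1 then fell (Kif4), beside 28.6% of genes that averaged 1 TPM or more, and 1 rose (Nusap1, 0.22). Kif11 and Hmmr turned to 0.02 and 0.09 there, so their falls with butyrate depended on the scale. Kif11, the motor that pushes spindle poles apart, fell by 0.34, 0.30 and 0.72 on the log2 scale. Tpx2, which activates Aurora A on the spindle, fell by 0.30, 0.39 and 0.66. Kif2c, a kinesin that takes microtubules apart at the centromere, and Kif4, a chromosome-bound kinesin, fell by 0.74 and 0.68 with the combination. Nusap1, which bundles spindle microtubules, was at 8.22, 8.61 and 8.37 TPM in vehicle, 6.37, 7.60 and 6.93 with UK5099, 7.63, 7.95 and 7.69 with butyrate, and 4.93, 5.51 and 5.37 with the combination. The butyrate samples lay just below vehicle, with a difference of -0.10 ± 0.05 (SE) that did not pass (limma adjusted p = 0.149). Hmmr, a microtubule-binding protein of the spindle, was at -0.11 ± 0.06 with UK5099 (limma adjusted p = 0.183) and fell by 0.23 with butyrate and 0.50 with the combination.

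Of the 5 kinetochore and centromere genes, the 4 others than Cenpa fell in every treatment on the deposited scale. After median-of-ratios scaling 2 fell with UK5099 and 4 with both. With butyrate 1 then fell (Nuf2), beside 28.6% of genes that averaged 1 TPM or more, and Cenpa rose (0.22, limma adjusted p = 0.00116). Cenpf, a large protein of the outer kinetochore, was at 15.4, 14.6 and 14.2 TPM in vehicle, 11.1, 11.02 and 12.2 with UK5099, 9.70, 10.1 and 10.1 with butyrate, and 6.87, 8.08 and 8.06 with the combination. Combination replicate 1 was the lowest sample. Ndc80 and Nuf2, partners in the complex that grips microtubules, fell by 0.32 and 0.28 with UK5099, 0.44 and 0.46 with butyrate, and 0.72 and 0.71 with the combination. Cenpe, a kinetochore motor, fell by 0.38, 0.39 and 0.68. Cenpa, the histone variant that marks the centromere, was at 46.7, 48.9 and 46.3 TPM in vehicle, 44.4, 45.5 and 46.1 with UK5099, 43.0, 43.5 and 42.6 with butyrate, and 33.7, 38.0 and 37.8 with the combination. Its difference was -0.06 ± 0.04 (SE) with UK5099 and -0.13 ± 0.04 with butyrate, and neither passed (limma adjusted p = 0.312 and 0.0239). With the combination Cenpa fell by 0.37, the smallest fall of the set, and after median-of-ratios scaling it was at 0.13 there, which did not pass.

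The chromosomal passenger complex corrects faulty attachments and later helps position the cleavage furrow. After median-of-ratios scaling 1 of its 4 genes fell with butyrate, beside 28.6% of genes that averaged 1 TPM or more. With UK5099 and with both, 2 of its 4 genes fell. Aurkb, its kinase, was at 39.7, 37.2 and 39.4 TPM in vehicle, 29.6, 30.9 and 29.4 with UK5099, 27.9, 29.0 and 28.3 with butyrate, and 22.8, 24.2 and 23.1 with the combination. The 4 groups did not overlap. Incenp, the scaffold of the complex, fell by 0.43, 0.49 and 0.85 on the log2 scale, and Cdca8 (borealin) by 0.26, 0.47 and 0.63. Birc5 (survivin) was at -0.25 ± 0.07 (SE) with UK5099, which did not pass (limma adjusted p = 0.0151), and fell by 0.31 with butyrate and 0.64 with the combination.

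The 5 spindle checkpoint genes fell in all 3 treatments on the deposited scale, with Bub1 and Mad2l1 lowest. After median-of-ratios scaling 3 fell with UK5099, 2 with butyrate (Bub1 and Mad2l1) and 5 with both. Bub1, a checkpoint kinase, was at 8.88, 8.11 and 8.70 TPM in vehicle, 5.81, 6.39 and 6.22 with UK5099, 4.84, 4.85 and 4.80 with butyrate, and 3.13, 3.14 and 3.70 with the combination. The groups stood in that order without overlap. Its log2 difference with the combination was -1.15 ± 0.05 (SE), and -0.72 after median-of-ratios scaling. Mad2l1, which encodes the MAD2 protein that binds CDC20, was at 32.2, 31.5 and 31.5 TPM in vehicle, 22.7, 24.2 and 24.3 with UK5099, 18.9, 20.2 and 19.2 with butyrate, and 13.9, 15.2 and 15.6 with the combination. Bub1b, Bub3 and the kinase Ttk, the other 3 checkpoint genes, fell by 0.73, 0.63 and 0.69 with the combination, and Bub3 by only 0.21 with UK5099. Ttk had the smallest standard error of the set, 0.02.

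For the step into anaphase, Cdc20, the activator of the anaphase-promoting complex, was at 70.9, 69.1 and 67.3 TPM in vehicle, 48.0, 52.0 and 50.3 with UK5099, 50.3, 51.8 and 52.4 with butyrate, and 37.6, 40.1 and 40.4 with the combination. The samples of the single agents overlapped, with falls of 0.46 and 0.42. After median-of-ratios scaling Cdc20 fell by 0.31 with UK5099 and was at -0.065 with butyrate, which did not pass, and butyrate lay above UK5099 by 0.24 (limma adjusted p = 0.000193). Ube2c, the ubiquitin-conjugating enzyme of the complex, fell by 0.41, 0.54 and 0.90, and Espl1, separase, by 0.26, 0.30 and 0.58. Pttg1, securin, which holds separase inactive, was at 14.4, 15.8 and 14.2 TPM in vehicle, 12.5, 12.5 and 12.8 with UK5099, 8.99, 8.73 and 9.21 with butyrate, and 9.26, 9.51 and 9.28 with the combination. It was the only member to fall whose combination samples all lay above its butyrate samples.

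All 6 cytokinesis genes fell with butyrate and with the combination, on the deposited scale and after median-of-ratios scaling. Kif20a, a kinesin of the central spindle, which fell by 0.49 with UK5099 and 0.66 with butyrate, was at 45.1, 46.8 and 44.6 TPM in vehicle, 31.1, 33.5 and 31.7 with UK5099, 27.2, 29.3 and 28.8 with butyrate, and 20.4, 22.6 and 22.8 with the combination. Kif23 and Ect2, a kinesin and an exchange factor that set up the cleavage furrow, both fell by 0.93 with the combination. Prc1, which bundles the midzone microtubules, fell by 0.80 and Kif20b by 0.78. Anln, anillin, which scaffolds the contractile ring, was at 15.4, 15.5 and 15.2 TPM in vehicle, 13.6, 14.3 and 14.9 with UK5099, 9.62, 9.84 and 9.71 with butyrate, and 7.85, 8.85 and 8.98 with the combination. UK5099 alone left it at -0.10 ± 0.05 (SE), which did not pass (limma adjusted p = 0.125), and butyrate lowered it by 0.61 ± 0.05 (limma adjusted p = 1.86e-06).

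In the combination, 7 of 42 members also passed a second limit, a log2 difference over 1 in size, where 4.63% of all genes did so in the lower direction. They were Plk1 (-1.17), Bub1 (-1.15), Mybl2 (-1.13), Mad2l1 (-1.04), Kif20a (-1.02), Foxm1 (-1.01) and Ccna2 (-1.005). With either agent alone no member's log2 difference exceeded 1 in size at a pseudocount of 1. At a pseudocount of 0.1 the counts were 12 with the combination and 1 with butyrate (Mybl2), and the same number of members were under 50% of their mean vehicle TPM. Without combination replicate 1 the count was 3, as it was without that sample and UK5099 replicate 1, with either vehicle replicate 1 or combination replicate 2 left out it was 6, and after median-of-ratios scaling it was 0.

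**Figure D4:**
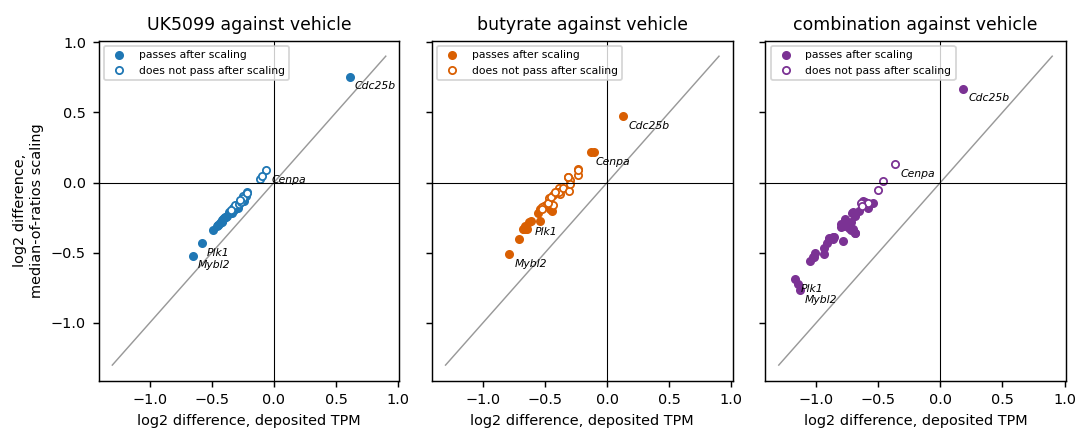
Log2 difference from vehicle of the 42 members on the deposited scale (horizontal) and after median-of-ratios scaling (vertical), in 3 panels for UK5099, butyrate and the combination, with filled points for adjusted p under 0.01 after scaling and a grey line of equality. Every point moves up after scaling, by more under the combination than under UK5099, which leaves 26, 18 and 35 members lower.

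Each agent was then compared with the other group that lacked only that agent. Added to butyrate, UK5099 lowered 38 of 42 members, where 22% of all genes fell and 5.52% rose, with a median of -0.33. The lowest were Plk1 (-0.54), Ccna2 (-0.48), Nusap1 (-0.48), Mki67 (-0.45) and Bub1 (-0.43). The 4 that did not pass were Cdca8 at -0.15, Anln at -0.17, Pttg1 at 0.05 and Cdc25b at 0.05. Added to UK5099, butyrate lowered 41 members, where 35.3% of all genes fell and 7.62% rose, with a median of -0.43. The lowest were Bub1 (-0.73), Foxm1 (-0.68), Anln (-0.68), Mad2l1 (-0.64) and Ccna2 (-0.61), and the highest were Espl1 (-0.32), Cdc25c (-0.32), Cenpe (-0.31), Cenpa (-0.31) and Aurka, which at -0.14 did not pass. Cdc25b, raised by UK5099, was lowered by 0.43 when butyrate was added, but after median-of-ratios scaling it was at -0.085, which did not pass (limma adjusted p = 0.0151). Without UK5099 replicate 1 and combination replicate 1, 39 members were lower for UK5099 and 42 for butyrate. After median-of-ratios scaling 21 were lower and 2 higher (Cdc25b, 0.20, and Pttg1, 0.19) for UK5099, where 9.28% of all genes fell and 10.4% rose. For butyrate 16 were then lower and 1 higher (Aurka), where 16.3% of all genes fell and 19.1% rose. Of the genes that averaged 1 TPM or more, as all members did, 35.9% fell for UK5099 and 58.5% for butyrate on the deposited scale. Their medians there were -0.12 and -0.29. After median-of-ratios scaling 14.1% and 26.6% of them fell.

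Whether the agents added up was read from the interaction, which is the log2 difference of the combination minus those of the single agents. It had a median of 0.03 over the members. The interaction passed for 1 member in the negative direction, Cdc25b, and for 2 in the positive direction, Mybl2 and Pttg1. Of all genes 6.38% and 7.01% passed, and of genes that averaged 1 TPM or more 10.4% and 9.67%. For Cdc25b it was -0.56 ± 0.04 (SE, limma adjusted p = 1.47e-05), since butyrate raised the gene by 0.13 without UK5099 and lowered it by 0.43 with it. After median-of-ratios scaling these were 0.47 and -0.085, the second of which did not pass. For Mybl2 it was 0.31 ± 0.05 (limma adjusted p = 0.00222) and for Pttg1 0.27 ± 0.05 (limma adjusted p = 0.00432), so both fell less with the combination than the sum of the single falls. Under 24 alternative settings the interaction of Cdc25b passed in 24, that of Mybl2 in 21 and that of Pttg1 in 14. For the other 39 members, whose standard errors were between 0.03 and 0.10, the interaction ran from -0.24 (Nusap1) to 0.14 (Kif23). Missing the limit does not show that a member had no interaction.

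**Figure D5:**
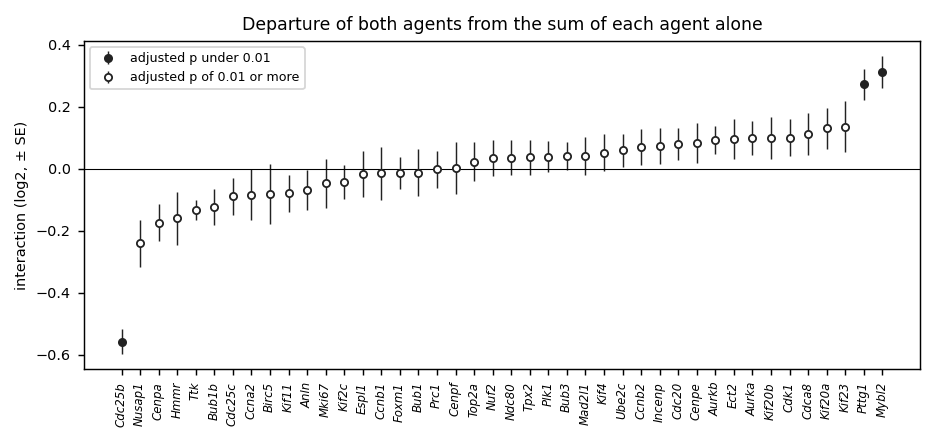
Interaction of UK5099 and butyrate (log2, ± SE) for each of the 42 members in ascending order, with filled points for an adjusted p under 0.01. Cdc25b stands alone at -0.56, Pttg1 and Mybl2 lie at 0.27 and 0.31, and the others lie near 0.

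Set directly against UK5099, butyrate gave lower values for 13 members and higher values for 0 by limma. Of all genes 27.5% were lower and 9.97% higher. Of the genes that averaged 1 TPM or more, as all members did, 45.6% were lower. By limma 1 member was higher at an unadjusted p under 0.05, and 11 passed as higher with voom on recovered fragments. The share of all genes that were higher with voom was not computed. The lowest members by limma were Anln (-0.51), Cdc25b (-0.48), Pttg1 (-0.44), Foxm1 (-0.34) and Bub1 (-0.29). The highest were Nusap1 (0.14), Mki67 (0.09), Aurka (0.08), Cdc20 (0.04) and Kif11 (0.04), none of which passed. Without UK5099 replicate 1 and combination replicate 1, 21 members were lower. After median-of-ratios scaling the median of the members turned from -0.11 to 0.07, with 4 lower and 8 higher, where 15.6% of all genes were lower and 18.1% higher. Anln, Cdc25b and Pttg1 were lower with butyrate than with UK5099 under all 7 scalings, as were 19.8% of the genes tested under all 7.

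Differences were also set beside 1 of the motifs. The 25 members with TTTGAA had medians of -0.32 with UK5099, -0.45 with butyrate and -0.76 with both, and the 10 without it, some of which hold the other letters, had -0.29, -0.43 and -0.69. After median-of-ratios scaling the medians were -0.19 and -0.16 with UK5099, -0.15 and -0.13 with butyrate, and -0.32 and -0.23 with both. The 10 without TTTGAA include Cdc25b. Mybl2, with none of the letters in its window, was among the lowest, as was Plk1, which holds both CCAAT and TTTGAA. This is a description of windows and log2 differences, with no test.

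Other genes of the same pathway were taken from lists, which were made with earlier results of these data known. Of 100 other mitosis genes, 76 fell and 2 rose with UK5099 (median -0.28), 89 fell and 1 rose with butyrate (-0.41), and 97 fell and 1 rose with the combination (-0.65). After median-of-ratios scaling 41, 45 and 68 fell and 4, 6 and 3 rose. Of all genes 24.7%, 35.9% and 40.8% fell on the deposited scale, and 13.6%, 18.2% and 20.6% after that scaling. Among genes that averaged 1 TPM or more the shares were 38.1%, 57.6% and 64.2%, and 19.9%, 28.6% and 31.5%. These shares stand beside the counts of the lists below as well. Wee1, the kinase that holds CDK1 inactive and so opposes the CDC25 phosphatases, was at 14.5 ± 0.424 TPM in vehicle (SD, n = 3), 12.9 ± 0.649 with UK5099, 5.34 ± 0.113 with butyrate and 5.06 ± 0.264 with both. Its log2 difference of -1.29 ± 0.04 (SE) with butyrate was the lowest of that list. Cenpt, a centromere protein, and Haspin, the kinase that marks centromeric histone H3, followed with -1.07 and -0.96. With UK5099 the lowest were Dsn1 (-0.60), a kinetochore protein, Haspin (-0.59) and Iqgap3 (-0.58). Reep4, which clears endoplasmic reticulum from mitotic chromosomes, rose by 0.49 with UK5099 and 0.25 with butyrate. Sgo2a, which protects cohesin at centromeres, rose by 0.26 with UK5099. Knstrn and Fam83d, of the spindle, were at 0.01 and 0.15 with butyrate, neither of which passed. After median-of-ratios scaling they were at 0.32 and 0.44 with butyrate, and Reep4 was at 0.60. Wee1, Cenpt and Haspin were then at -0.96, -0.75 and -0.63.

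Of 19 regulators of mitotic genes, 11 fell with UK5099 (median -0.24), 16 fell and 1 rose with butyrate (-0.28), and 17 fell with the combination (-0.49). After median-of-ratios scaling 8 fell and 2 rose with UK5099, 6 fell and 3 rose with butyrate, and 10 fell and 3 rose with the combination. The regulators' median with butyrate on the deposited scale was no lower than that of genes that averaged 1 TPM or more (-0.30). Their 6 falls of 19 with butyrate after scaling stood beside falls of 28.6% of such genes. E2f1, an activator of S phase genes, fell by 0.49 with UK5099 and 0.60 with butyrate. Tfdp1, its partner, and E2f2 fell by 0.37 and 0.36 with UK5099, and Lin37 and E2f4, parts of DREAM, by 0.54 and 0.52 with butyrate. Tfdp2 rose by 0.10 with butyrate. Rbl2, Rb1 and Mybl1 were at -0.01, 0.08 and 0.11 with UK5099, and Mybl1 and the NF-Y subunit Nfya at -0.10 and -0.08 with butyrate, none of which passed. After median-of-ratios scaling Rbl2, Rb1 and Mybl1 were at 0.11, 0.15 and 0.18 with UK5099. With butyrate Mybl1, Nfya and Tfdp2 were then at 0.08, 0.25 and 0.34, and Lin37 and E2f4 at -0.22 and -0.17. Of 30 S phase genes, 28 fell and 1 rose with UK5099 (median -0.42), 27 fell with butyrate (-0.48) and 30 fell with the combination (-0.81). After median-of-ratios scaling 23, 16 and 20 of the S phase genes fell and 1, 4 and 2 rose.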

How the data were processed

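RNA was measured in 12 mouse prostate organoid samples, grouped by their labels. The authors deposited 1 table of TPM per gene. The submitters' processing notes name Partek, STAR 2.7.9a and the build GRCm39, while the study's methods name fastp, STAR on GRCm38 and RSEM. Of the table's nuclear genes 2.01% had the span of GRCm38, so its coordinates were not combined with that build. In 100% of genes the listed length equalled stop minus start, so these TPM values are scaled by genomic span. Fragments were recovered from each sample's smallest step, and 52.4% to 57.9% of the values above 0 were whole within 0.02 of a fragment.

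Values were taken as log2(TPM + 1), with no filter, into limma 3.58.1 in R 4.3.3. The fit over all 12 samples had terms for each agent and for the interaction, as in the study's methods, with empirical Bayes moderation and Benjamini-Hochberg adjustment over 24674 genes. A gene passed at an adjusted p under 0.01. The pseudocount of 1 is a choice made here. Alternatives were other pseudocounts (0.1 and 0.01), a filter at 1 TPM, median-of-ratios and quantile scaling, nuclear protein-coding genes rescaled to 1000000, exonic length, voom on recovered fragments, a robust prior with a trend, a replicate block, 6-sample fits and each sample left out. Voom with library sizes by total fragments, and the fit without both UK5099 replicate 1 and combination replicate 1, were added after seeing the data. Counts over 7 scalings cover the deposited, median-of-ratios, quantile, protein-coding and exonic scales and both voom fits. The fit was tested on simulated data for UK5099 against vehicle, with no general shift of the table put in. It recovered 153 of 200 changed genes, and 138 of the 168 that averaged 1 TPM or more. Of 24474 unchanged genes, 4 passed.

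The members and gene lists were chosen with earlier results of these data known. Named are the 5 lowest and 5 highest members of a comparison, preset markers with per-sample values, members past both limits, and the 3 lowest and 3 highest genes of the other lists with each single treatment, of which 1 is not reported here. Per-sample values of Ccna2 (in part), Nusap1, Cenpa, Cdc25b, Pttg1 and Anln were added after their values were seen. Promoter windows came from RefSeq (GRCm38.p6). Python 3.11.15, numpy 2.4.6, pandas 2.3.3 and matplotlib 3.10.9 were used.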

Additional observations from a re-analysis of the deposited data

Results flagged for a closer look

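For 3 mitosis genes the effect of one agent differed with the presence of the other, by the interaction term of the limma fit at an adjusted p under 0.01. Of all genes, 6.38% passed in the negative direction and 7.01% in the positive direction. Of genes that averaged 1 TPM or more, 10.4% and 9.67% did. None of the 3 had an interaction over 1 in size on the log2 scale.

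The interaction of Cdc25b was -0.56. UK5099 raised it by 0.61 on the log2 scale without butyrate, while its difference with butyrate present was 0.05 and did not pass (0.75 and 0.20 after median-of-ratios scaling, both past the limit), and over 24 alternative settings the interaction stayed between -0.59 and -0.53 and passed in all 24. The interaction of Mybl2 was 0.31. UK5099 lowered it by 0.65 without butyrate and by 0.34 with it, and the interaction ranged from 0.25 to 0.35 and passed in 21 of 24 settings, but not with pseudocounts of 0.1 or 0.01 or with exonic length. The interaction of Pttg1 was 0.27. UK5099 lowered it by 0.22 without butyrate and its difference with butyrate present was 0.05 and did not pass (after median-of-ratios scaling -0.075, not past the limit, and 0.19, past it), and the interaction ranged from 0.23 to 0.31 and passed in 14 of 24 settings. The causes of these differences were not tested.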

How the results depend on the processing

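The direction of most member differences held, and their size hung on the scale. Shares of all genes that passed were computed for the deposited scale and median-of-ratios scaling, but not for each other setting on its own. The counts of members under those other settings have no such share beside them. They therefore do not show whether the members differed from genes in general. Recomputed were 4140 member values, over 42 members in 3 comparisons with vehicle and the 10 lowest and highest members in each of the other 4. Of these, 3862 kept their side of the limit, some of them with a turned sign where neither value passed. Another 180 no longer passed and 56 newly passed. In the other 42 the sign turned and either value passed, under median-of-ratios, quantile or voom scaling. Depth limited Pttg1, Mybl2 and Ttk most, and the fold changes of Mybl2, Kif4 and Ttk are understated by the pseudocount. The replicate numbers gave no sign of pairing. Same-numbered samples of different groups correlated between -0.107 and 0.029 in their deviations, and differently numbered ones between -0.058 and 0.074. With 3 samples a group this cannot exclude a pairing. With a replicate block 38 members fell with UK5099, 38 with butyrate and 41 with both, and 2 members had a lower and 1 a higher interaction; no other count moved by over 1.5 times under the block.

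After median-of-ratios scaling the medians were -0.19 with UK5099, -0.15 with butyrate (18 members lower, 3 higher), -0.32 with the combination, -0.19 for UK5099 added to butyrate (21 lower, 2 higher) and -0.12 for butyrate added to UK5099 (16 lower, 1 higher). The interaction was lower for 2, and butyrate against UK5099 had a median of 0.072 with 4 lower and 8 higher. With butyrate, Cdc25c was then at 0.057, Aurka at 0.094, Mki67 at 0.040, Kif11 at 0.019, Nusap1 at 0.22, Hmmr at 0.088, Cenpa at 0.22 and Birc5 at 0.037. With the combination Aurka was at 0.0099 and Cenpa at 0.13, and with butyrate added to UK5099 Cenpa was at 0.041 and Aurka at 0.19.

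Under quantile normalisation the medians were -0.20 with UK5099, -0.14 with butyrate (18 lower, 3 higher), -0.37 with the combination, -0.23 for UK5099 added to butyrate (2 higher) and -0.11 for butyrate added to UK5099 (17 lower, 1 higher). The interaction was lower for 2, and butyrate against UK5099 had a median of 0.088 with 3 lower and 10 higher. For butyrate against UK5099, genes that averaged 1 TPM or more had a median of -0.0075 under this scaling. With butyrate, Cdc25c was at 0.017, Aurka at 0.11, Mki67 at 0.0023, Kif11 at 0.0032, Nusap1 at 0.20, Hmmr at 0.079, Cenpa at 0.24 and Birc5 at 0.071. Cenpa was at 0.094 with the combination and 0.027 with butyrate added to UK5099, where Aurka was at 0.18.

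With voom and median-of-ratios library sizes the medians were -0.22 with UK5099, -0.17 with butyrate (24 lower, 3 higher), -0.37 with the combination (2 higher), -0.22 for UK5099 added to butyrate (2 higher) and -0.13 for butyrate added to UK5099 (22 lower, 1 higher). The interaction was lower for 3, and butyrate against UK5099 had a median of 0.078 with 4 lower and 11 higher. For butyrate against UK5099, genes that averaged 1 TPM or more had a median of 0.0045 in this fit. With butyrate, Cdc25c was at 0.073, Aurka at 0.10, Mki67 at 0.039, Kif11 at 0.021, Nusap1 at 0.24, Hmmr at 0.098, Cenpa at 0.22 and Birc5 at 0.032. With the combination Aurka was at 0.0083 and Cenpa at 0.13, and with butyrate added to UK5099 Cenpa was at 0.040 and Aurka at 0.20.

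With voom and total fragments the medians were -0.21 with butyrate (3 higher), -0.49 with the combination and -0.18 for butyrate added to UK5099 (27 lower, 1 higher), and UK5099 added to butyrate had 1 higher. The interaction was lower for 4 and higher for 1, and butyrate against UK5099 had a median of 0.11 with 4 lower and 17 higher. For butyrate against UK5099, genes that averaged 1 TPM or more had a median of 0.034 in this fit. With butyrate, Cdc25c was at 0.030, Aurka at 0.058, Nusap1 at 0.20, Hmmr at 0.055 and Cenpa at 0.18. Cenpa was at 0.0083 with the combination, and Aurka at 0.15 with butyrate added to UK5099.

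With protein-coding genes rescaled the medians were -0.33 with butyrate, -0.62 with the combination, -0.26 for butyrate added to UK5099 and 0.048 for butyrate against UK5099 (4 lower, 5 higher). With exonic length they were -0.39 with butyrate and -0.030 for butyrate against UK5099 (7 lower, 2 higher), and the interaction was lower for 2 and higher for 1. A pseudocount of 0.01 gave -0.37 with UK5099, -0.52 with butyrate (0 higher) and -0.87 with the combination, with the interaction higher for 0. A pseudocount of 0.1 gave -0.52 and -0.86 with butyrate and the combination, with the interaction lower for 2 and higher for 1. The fit on 6 samples left 25 members lower for UK5099 added to butyrate. Without UK5099 replicate 1 and combination replicate 1 the interaction was higher for 1, and 21 members were lower with butyrate than with UK5099. The cause of each change was not tested.

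Leaving out each sample in turn gave 34 to 38 members lower with UK5099, 37 to 40 with butyrate, 41 with the combination in every case, 33 to 39 for UK5099 added to butyrate, 41 for butyrate added to UK5099, 1 for the interaction and 9 to 17 for butyrate against UK5099. Members higher were 1 with UK5099, 0 to 1 with butyrate, 1 with the combination, 0 for each agent added to the other, 1 to 2 for the interaction and 0 to 1 for butyrate against UK5099. The medians ran from -0.34 to -0.30, -0.48 to -0.43, -0.77 to -0.70, -0.37 to -0.27, -0.45 to -0.39, 0.00017 to 0.05 and -0.14 to -0.09 in the same order of comparisons. The 1 higher interaction was left without UK5099 replicate 1 or 2, butyrate replicate 1 or 2, or combination replicate 2 or 3. The 1 higher member against UK5099 came without UK5099 replicate 2.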
